A study of Mus musculus with 6 samples.

Results

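The 10 genes described here encode contractile proteins of the smooth muscle type, namely smooth muscle actin (Acta2), transgelin (Tagln), the regulatory myosin light chain Myl9, the calponins Cnn2 and Cnn3, the tropomyosins Tpm1 and Tpm2, caldesmon (Cald1), smooth muscle myosin heavy chain (Myh11) and leiomodin 1 (Lmod1). They were chosen by name, with earlier results of these data known. All probe sets annotated to exactly 1 of these symbols were taken, which gave 28 of the 34945 single-gene probe sets on the array. Each member has at least 1 of its own, and 8 are called general here and 2 mature. The arrays hold RNA of primary ovarian surface epithelium (OSE) cells, the single layer of cells around the ovary, from virgin FVB/N mice of 8 weeks. All cells were kept in culture for 24 hours, stained with ALDEFLUOR, which makes cells with aldehyde dehydrogenase (ALDH) activity fluoresce, and sorted. The samples are 3 of ALDH-positive cells and 3 of ALDH-negative cells, 1 of each from every one of 3 independent pools of 10 mice, hybridized to Affymetrix Mouse Genome 430 2.0 arrays. Both fractions come from the same pool of cells, so that the ALDH-negative cells are the remaining cells of the preparation and not an untreated control, and each sample mixes the cells of 10 mice.

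Smooth muscle contracts when myosin slides along actin filaments, and phosphorylation of the regulatory light chain starts the movement. Tropomyosin lies along the filament, caldesmon and calponin hold the myosin back, and leiomodin starts new filaments. Several of these genes are also used outside smooth muscle, in fibroblasts, in myofibroblasts and in epithelial or mesothelial cells grown on a hard surface, where they build stress fibres. Myh11 and Lmod1 are more restricted and serve as markers of mature smooth muscle, and these 2 are set against the other 8 below. Many of the genes are known targets of serum response factor (SRF), which binds the CArG box, a pair of C, 6 bases of A or T and a pair of G.

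The windows upstream of the transcription start are shown for the 3 members with a CArG box or a near match there (Acta2, Myl9 and Cnn2) and for Lmod1, a mature smooth muscle gene, beside them. Of the 10 genes, 8 had a window among the RefSeq promoter sequences (build GRCm38.p6), with 9 windows in all. Each line gives the 250 bases before the start on the strand of the gene, with CArG boxes, and the same motif with 1 of its 6 central bases not A or T, in capitals.
Acta2 upstream window, chr19:34255374-34255623, minus strand: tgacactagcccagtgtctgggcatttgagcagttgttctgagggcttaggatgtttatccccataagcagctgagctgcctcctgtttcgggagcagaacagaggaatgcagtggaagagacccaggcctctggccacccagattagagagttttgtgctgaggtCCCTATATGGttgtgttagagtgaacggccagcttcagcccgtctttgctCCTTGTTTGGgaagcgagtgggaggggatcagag
Myl9 upstream window, chr2:156775214-156775463, plus strand: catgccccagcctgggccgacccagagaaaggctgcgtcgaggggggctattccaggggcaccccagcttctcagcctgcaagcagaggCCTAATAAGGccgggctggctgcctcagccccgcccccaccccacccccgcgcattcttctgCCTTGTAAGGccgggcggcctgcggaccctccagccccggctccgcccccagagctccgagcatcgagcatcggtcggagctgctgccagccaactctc
Cnn2 upstream window, chr10:79988350-79988599, plus strand: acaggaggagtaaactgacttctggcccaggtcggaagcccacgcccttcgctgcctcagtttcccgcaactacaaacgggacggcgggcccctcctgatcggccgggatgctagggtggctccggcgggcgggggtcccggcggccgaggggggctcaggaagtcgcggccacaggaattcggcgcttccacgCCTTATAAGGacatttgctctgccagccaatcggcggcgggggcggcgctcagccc
Lmod1 upstream window, chr1:135324563-135324812, plus strand: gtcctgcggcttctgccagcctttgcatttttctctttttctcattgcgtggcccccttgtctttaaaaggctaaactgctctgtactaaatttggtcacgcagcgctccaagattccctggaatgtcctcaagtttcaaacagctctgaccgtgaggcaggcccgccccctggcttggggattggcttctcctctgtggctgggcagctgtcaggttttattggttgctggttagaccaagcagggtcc

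In Acta2 the scan found 2 near matches, starting 84 and 34 bases before the start. Myl9 had a full CArG box at 161 bases and a near match at 99 bases. Cnn2 had a full box at 56 bases. The windows of Lmod1, Cnn3, Tpm1, Tpm2 and Cald1 held neither form, which says only that these letters are not in the 250 bases searched. Full boxes were present in 1.47% of the 32851 promoter windows of the mouse table and near matches in 7.24%, and the motif reads the same on both strands. Among the member windows 2 of 9 held a full box and 2 of 9 a near match. The letters TATAAA, searched on both strands, were in 1 of the 9 windows, a window of Cald1, and in 12.4% of all windows.

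Signals are given as log2 values after quantile normalization, and differences are ALDH-positive minus ALDH-negative within a pool, averaged over the 3 pools. Of the 28 probe sets 24 were bright enough for a test, since their mean over the 6 arrays lay above 2.73. The 4 others were 2 of Acta2, 1 of Cnn3 and 1 of Tpm1. One array, that of ALDH-negative cells in pool 2, differed from all others, with correlations across probe sets of 0.558 to 0.679 with the other arrays, which correlated at 0.850 to 0.974 among themselves. On it, probe sets that averaged 6 to 8 on the other arrays read lower by a median of 1.62 (median difference -1.62), and those that averaged 3 to 4 read higher by a median of 0.59. In pool 3 the 5' control probe set of Gapdh was dim, at 5.20 in ALDH-positive cells, against 6.63 in ALDH-negative cells. In pools 1 and 2 it read 10.24 and 10.11 in ALDH-positive cells, against 10.30 and 7.92 in ALDH-negative cells. No probe set of the whole table passed the threshold (limma, Benjamini-Hochberg adjusted p under 0.05, 0% of 27022). At an unadjusted p under 0.05, 552 probe sets were higher in ALDH-positive cells (2.04%) and 109 were lower (0.403%). All differences below are therefore descriptions of size and of direction in each pool.

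Acta2, Tagln and Myl9 were the members with the largest differences in pools 1 and 3. Each was higher in ALDH-positive cells in every pool, by a mean of 3.59, 2.94 and 2.62. Counted by brightest probe set, these were also the 3 of 10 members whose difference was at least 1 in both pool 1 and pool 3. Those are the pools without the deviating array, and 1.58% of the 12814 genes tested met that condition. Cald1 1424768_at, which is not the brightest probe set of its gene, met it as well, at 1.39 and 1.04. Cnn2 was higher in every pool by less. Tpm1, Tpm2 and parts of Cald1 were higher mainly in pool 2. Cnn3, Myh11 and Lmod1 had no common direction over the pools.

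Acta2, the actin of vascular smooth muscle and of myofibroblasts, read 9.59, 9.29 and 10.09 in ALDH-positive cells of pools 1, 2 and 3, against 6.19, 4.78 and 7.23 in ALDH-negative cells. The ALDH-positive arrays lay within a range of less than 1 and all above the ALDH-negative arrays, of which the one in pool 2 was the lowest. The means were 9.66 ± 0.41 in ALDH-positive cells, against 6.07 ± 1.23 in ALDH-negative cells (SD, n = 3 each), a 12.0-fold difference. The log2 difference of 3.59 had an SE of 0.68 (limma adjusted p = 0.895 over all probe sets, unadjusted p = 9.48e-04). It was 3.39 in pool 1, 4.51 in pool 2 and 2.86 in pool 3, and 3.13 without pool 2. This probe set, 1416454_s_at, is of a type whose probes can match transcripts of related genes, so that other actins may add to it. The other probe sets of Acta2 were too dim to be tested. In 1456658_at the readings were 3.08, 2.35 and 2.51 in ALDH-positive cells, against 1.92, 2.56 and 1.65 in ALDH-negative cells, and in 1444105_at they were 1.83, 0.95 and 1.52, against 0.70, 2.25 and 1.03. Both were higher in ALDH-positive cells in pools 1 and 3 and lower in pool 2.

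**Figure D1:**
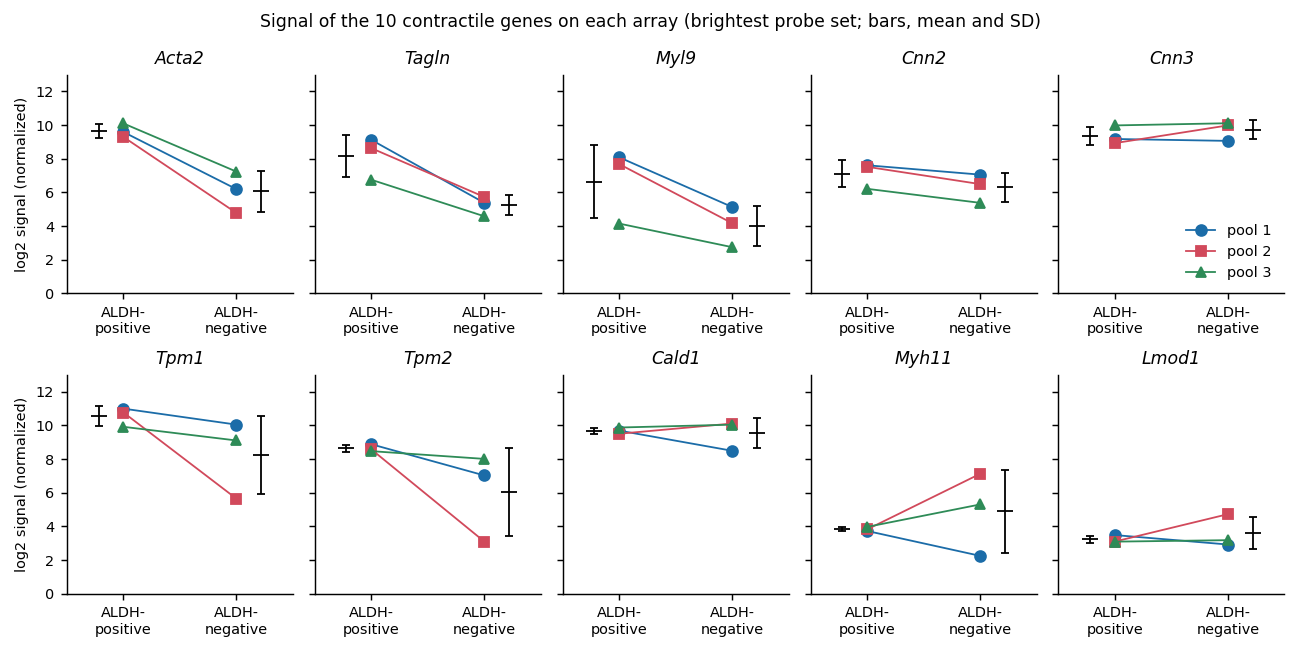
Normalized log2 signal of the brightest probe set of each of the 10 genes, with ALDH-positive cells left and ALDH-negative cells right in each panel. Symbols joined by a line are the fractions of 1 pool and black bars give the mean and SD of 3 arrays. Acta2 and Tagln have all ALDH-positive arrays above all ALDH-negative arrays, while Tpm1 and Tpm2 read much lower in ALDH-negative cells of pool 2 than elsewhere and Myh11 runs in different directions.

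Tagln, an actin-binding protein of the calponin family, read 9.12, 8.63 and 6.75 in ALDH-positive cells, against 5.38, 5.73 and 4.58 in ALDH-negative cells. The fractions did not overlap, and pool 3 was the lowest pool in each fraction. The mean difference was 2.94 (SE 0.67, limma adjusted p = 0.895), or 7.65-fold, with 3.74, 2.90 and 2.17 in the 3 pools. Leaving out pool 2 left it at 2.95. Its mean moved less with pool 2 than those of Acta2 and Myl9 did.

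Myl9, the regulatory myosin light chain of smooth muscle and of non-muscle stress fibres, read 8.08, 7.68 and 4.15 in ALDH-positive cells and 5.13, 4.17 and 2.74 in ALDH-negative cells. Within every pool the ALDH-positive array was higher, but the fractions overlapped, because the ALDH-positive array of pool 3 was dimmer than both other ALDH-negative arrays. The difference was 2.62 (SE 0.71, limma adjusted p = 0.895), with 2.95, 3.51 and 1.40 in the pools and 2.18 without pool 2. The low readings of Tagln and Myl9 in pool 3 came with the low 5' Gapdh signal of both arrays of that pool, and its part in them was not tested. Acta2 was brightest in pool 3.

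**Figure D2:**
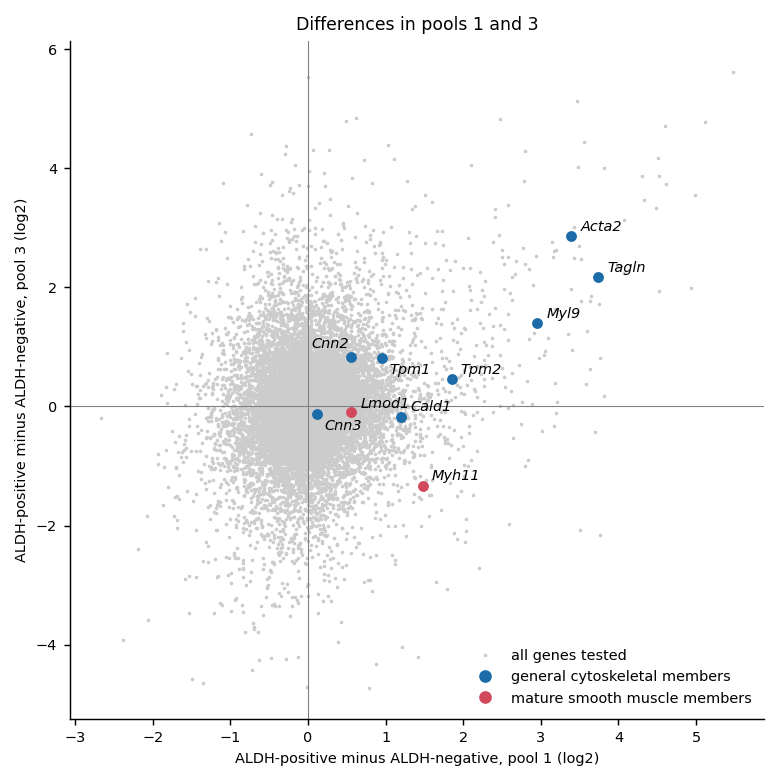
Log2 difference of ALDH-positive minus ALDH-negative cells in pool 1 (x axis) and in pool 3 (y axis) for all 12814 genes tested (grey) and for the members (blue, general cytoskeletal; red, mature smooth muscle). Acta2, Tagln and Myl9 lie in the upper right, at 1.40 or more in both pools, while Myh11 is positive in pool 1 and negative in pool 3.

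The calponins gave a small and a mixed result. Cnn2, the calponin found in many non-muscle cells, read 7.61, 7.52 and 6.21 in ALDH-positive cells, against 7.05, 6.49 and 5.38 in ALDH-negative cells. The difference of 0.80 had close pool values of 0.56, 1.03 and 0.83 (SD of the pools 0.24). Its SE of 0.63 is larger, because limma draws the spread of each probe set towards one shared by all (adjusted p = 0.895). In the values as deposited the difference of Cnn2 was 1.33. The fractions overlapped across pools.

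Cnn3, the acidic calponin of non-muscle cells, has 6 probe sets, of which 5 were tested. The brightest, 1436836_x_at, read 9.17, 8.93 and 9.98 in ALDH-positive cells and 9.06, 9.98 and 10.11 in ALDH-negative cells. Its difference was -0.36 (SE 0.66), with 0.11, -1.05 and -0.13 in the pools. The 3 other tested probe sets ending in _x_at, a type that shares probes with other sequences, differed by -0.16, -0.82 and -1.23. In contrast, 1426724_at differed by 2.33 (SE 1.39). It read 8.82, 8.66 and 7.10 in ALDH-positive cells, against 8.74, 1.57 and 7.29 in ALDH-negative cells. Only the ALDH-negative array of pool 2 departed, giving 7.09 in pool 2 and 0.08 and -0.19 in pools 1 and 3. Without pool 2 all 5 tested probe sets of Cnn3 lay between -0.25 and 0.17. On the deviating array, 1426724_at stood at -6.55 relative to the mean of the other arrays, and 1436759_x_at at 3.05.

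The tropomyosins were higher in ALDH-positive cells in the mean, and pool 2 gave most of it. Tpm1, whose isoforms serve muscle and non-muscle filaments, read 10.99, 10.76 and 9.91 in ALDH-positive cells and 10.04, 5.64 and 9.10 in ALDH-negative cells with its brightest probe set. The pool differences were 0.95, 5.12 and 0.81, and the mean of 2.29 (SE 0.97, limma adjusted p = 0.895) became 0.88 without pool 2. The 2 other tested probe sets had means of 2.84 and 2.19, and 1.04 and 0.58 without pool 2. All 3 were higher in ALDH-positive cells in every pool, the smallest value being 0.02 for 1456623_at in pool 3. Probe sets of Tpm1 cover different parts of its spliced transcripts, so that isoforms were not told apart.

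Tpm2, the beta tropomyosin, read 8.88, 8.57 and 8.47 in ALDH-positive cells, against 7.02, 3.10 and 8.01 in ALDH-negative cells. Its ALDH-positive values lay close together and above all ALDH-negative values. The pool differences were 1.85, 5.48 and 0.46, with a mean of 2.60 (SE 1.00, limma adjusted p = 0.895) and 1.16 without pool 2. Of its other probe sets, 1419738_a_at and 1449577_x_at gave 2.43 and 2.46, and 1.08 and 1.01 without pool 2. The remaining one, 1419739_at, gave 0.04, with 1.61, -1.40 and -0.08 in the pools.

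Cald1, which encodes caldesmon, an inhibitor of actin and myosin interaction, differed by probe set. The brightest, 1424769_s_at, read 9.69, 9.50 and 9.87 in ALDH-positive cells and 8.49, 10.11 and 10.04 in ALDH-negative cells, a difference of 0.14 (SE 0.69). By contrast 1424768_at read 8.76, 8.50 and 8.32 in ALDH-positive cells, against 7.37, 3.02 and 7.28 in ALDH-negative cells. Its groups did not overlap, and its difference was 2.63 (SE 0.97, limma adjusted p = 0.895), with 1.39 and 1.04 in pools 1 and 3. The 3 remaining probe sets had means between 0.54 and 0.99. In pool 1 each of the 5 was higher in ALDH-positive cells, by 0.46 to 1.39. In pool 3, 3 were higher and 2 lower.

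**Figure D3:**
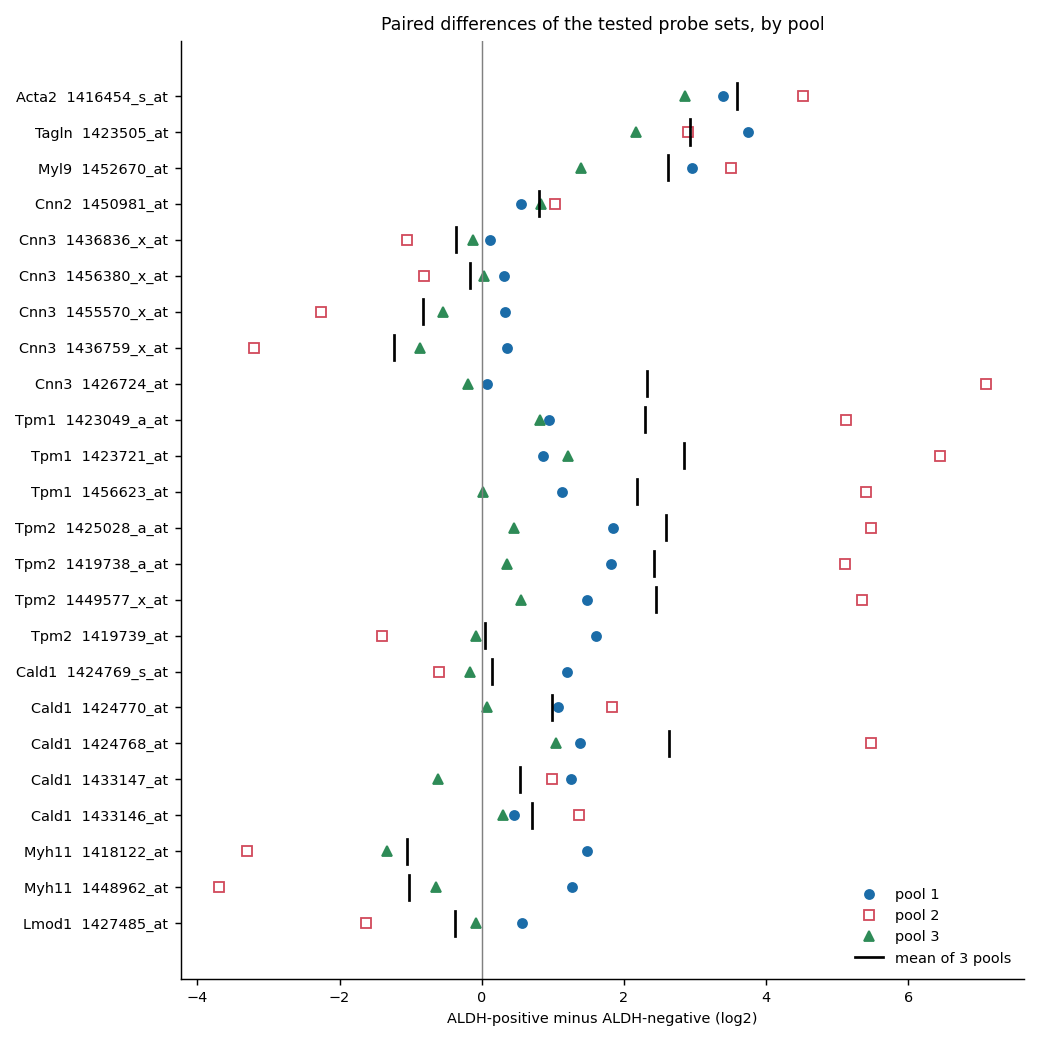
Log2 difference of ALDH-positive minus ALDH-negative cells for each of the 24 tested probe sets, by pool (filled circles, pool 1; open squares, pool 2; filled triangles, pool 3; black bars, mean). Pool 2 lies at 5.11 or above for 6 probe sets of Tpm1 and Tpm2, at 5.47 for 1 of Cald1 and at 7.09 for 1 of Cnn3, far from pools 1 and 3, and at -3.30 and -3.69 for the probe sets of Myh11.

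The mature smooth muscle genes had no direction common to the 3 pools. Myh11, the heavy chain of smooth muscle myosin, read 3.73, 3.82 and 3.97 in ALDH-positive cells and 2.25, 7.12 and 5.30 in ALDH-negative cells with 1418122_at. The ALDH-positive arrays lay close together, whereas the ALDH-negative arrays lay on both sides of them. The difference was -1.05 (SE 0.96, limma adjusted p = 0.895), with 1.48, -3.30 and -1.33 in the pools, and 0.07 without pool 2. The second probe set, 1448962_at, read 3.16, 2.75 and 2.53 in ALDH-positive cells, against 1.89, 6.44 and 3.18 in ALDH-negative cells, a difference of -1.02 (SE 0.98) and 0.31 without pool 2. Both probe sets had the same signs, higher in ALDH-positive cells in pool 1 and lower in pools 2 and 3.

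Lmod1, the leiomodin of smooth muscle, read 3.48, 3.10 and 3.09 in ALDH-positive cells and 2.92, 4.72 and 3.18 in ALDH-negative cells. Its difference was -0.38 (SE 0.71, limma adjusted p = 0.913), with 0.56, -1.62 and -0.09 in the pools. Without pool 2 it was 0.24. The high readings of Myh11 and Lmod1 in ALDH-negative cells of pool 2 were on the array where most dim probe sets also read higher, 60.3% of those that averaged 3 to 4 elsewhere and 65.7% of those that averaged 2 to 3. On that array Myh11 1418122_at lay above the mean of the other arrays by 3.31 and Lmod1 by 1.57, against a median of 0.59 for the range of 3 to 4. Myh11 1448962_at, which averaged 2.70 elsewhere, lay above by 3.74, against a median of 0.55 for the range of 2 to 3.

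Of the 24 tested probe sets of the members, 13 were higher in ALDH-positive cells in all 3 pools, against 11.5% of all probe sets tested, and 8 had every ALDH-positive array above every ALDH-negative one, against 3.49%. All 13 and all 8 belong to general members, and Tpm1, Tpm2 and Cald1 each gave 3 of the 13. The shares of all probe sets, and those of all genes below, were not matched for brightness. On the deviating array, 26.1% of probe sets that averaged 6 to 8 elsewhere read higher, against 60.3% of those that averaged 3 to 4. The shares for bright and for dim probe sets may therefore differ in pool 2. Counted over genes, with the brightest probe set for each, 7 of the 8 general members were higher in ALDH-positive cells in the mean and 1 lower, and 6 were higher in all 3 pools. Both mature members were lower in the mean, and neither had 1 direction in all pools. Of all genes tested, 46% were higher in the mean and 11.3% were higher in all 3 pools. The median difference was 2.44 over the general members, -0.72 over the mature ones and -0.08 over all genes tested. Without pool 2 the medians were 1.02, 0.15 and 0.04. None of the 10 passed the threshold over all probe sets, as none of the genes tested did (0%). At an unadjusted p under 0.05, 5 of the general members were higher (Acta2, Tagln, Myl9, Tpm1 and Tpm2) and none of the mature ones, against 1.93% of all genes. No member was lower at that level, which 0.429% of all genes were. In Acta2, Tagln and Tpm2 the fractions did not overlap, with all ALDH-positive arrays on top, as in 3.55% of all genes. Without pool 2, 3 members were higher at an unadjusted p under 0.05, namely Acta2, Tagln and Myl9, against 2.71% of all genes. The members were chosen with earlier results of these data known, so these counts are descriptions and not independent evidence.

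The difference of Acta2 was set against that of each other member within the pools. Acta2 had the largest mean difference of the members, so an excess in the mean was fixed by that choice. Its difference exceeded that of Myh11 by 1.92, 7.81 and 4.19 in pools 1, 2 and 3, and that of Lmod1 by 2.83, 6.14 and 2.95. Among general members it also exceeded that of Cnn2 by 2.84, 3.49 and 2.03 and that of Myl9 by 0.44, 1.00 and 1.46. The excess was 3.28, 5.57 and 2.99 over Cnn3 and 2.20, 5.12 and 3.03 over Cald1. The exact sign-flip permutation test gave p = 0.25 for each of these (two-sided), the smallest that 3 pools allow, and 0.375 after Benjamini-Hochberg adjustment over the 9 comparisons with Acta2. Against Tagln the excess was -0.35, 1.62 and 0.69, against Tpm1 2.44, -0.61 and 2.05, and against Tpm2 1.54, -0.96 and 2.40. For these 3 members the order relative to Acta2 varied between pools (exact p = 0.5 for each).

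Of the other mature smooth muscle genes, 13 were on the array and 7 were bright enough for a test, with 2 higher, 5 lower and a median difference of -0.31. Without pool 2 all 7 lay above 0 and the median was 0.47. Smoothelin (Smtn) was the one higher in all pools, at 4.84, 4.88 and 2.78 in ALDH-positive cells, against 4.02, 2.62 and 2.44 in ALDH-negative cells (difference 1.14, SE 0.70). Mylk, the kinase of the myosin light chain, differed by 0.90 (SE 0.74), and Casq2 and Jph2, which encode proteins of the calcium store, by -0.81 (SE 0.79) and -0.66 (SE 0.91). Without pool 2 these 4 stood at 0.58, 0.34, 0.12 and 0.59. Actg2 and Cnn1, the enteric actin and the basic calponin of differentiated smooth muscle, were too dim to be tested. Actg2 read 1.17 to 2.08 in the ALDH-positive and 1.02 to 1.67 in the ALDH-negative fraction, and Cnn1 read 2.02 to 2.37 in the ALDH-positive and 1.89 to 2.91 in the ALDH-negative fraction.

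In the list of non-muscle actins, tropomyosins, transgelin and myosins, 7 of 11 genes were higher and 4 lower, with a median of 0.74 and of 0.31 without pool 2. Actb, the common cytoplasmic actin, was higher in every pool, by 0.79, 1.92 and 0.78 (mean 1.16, SE 0.66). Actg1, its gamma counterpart, differed by 1.06 (SE 0.71), and the non-muscle myosin heavy chain Myh9 by 1.05 (SE 0.66), and both were higher in every pool. Myh14, another non-muscle heavy chain, was lower in every pool (mean -0.98, SE 0.70). Without pool 2, Actb stood at 0.78, Actg1 at 0.44, Myh9 at 0.67 and Myh14 at -0.37. In pool 2 the 3' and 5' control probe sets of Actb, as deposited, read 10.88 and 11.10 in ALDH-positive cells, against 5.03 and 4.81 in ALDH-negative cells. None of the list reached an unadjusted p under 0.05.

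Of the genes for proteins that crosslink filaments or tie them to adhesions, 12 of 13 were higher in the mean, 9 of them in all pools, with a median of 1.40. Zyxin (Zyx), a protein of focal adhesions, read 9.23, 9.04 and 7.68 in ALDH-positive cells, against 7.90, 4.68 and 5.09 in ALDH-negative cells. Its difference of 2.76 (SE 0.78, limma adjusted p = 0.895) was 1.95 without pool 2. The LIM protein Csrp1 differed by 2.34 (SE 0.93), the adaptor Pdlim7 by 2.17 (SE 0.88) and vinculin (Vcl) by 2.89 (SE 1.21), and by 1.24, 0.99 and 0.91 without pool 2. Csrp1 had almost no difference in pool 3, at 0.01. The list median without pool 2 was 0.91.

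**Figure D4:**
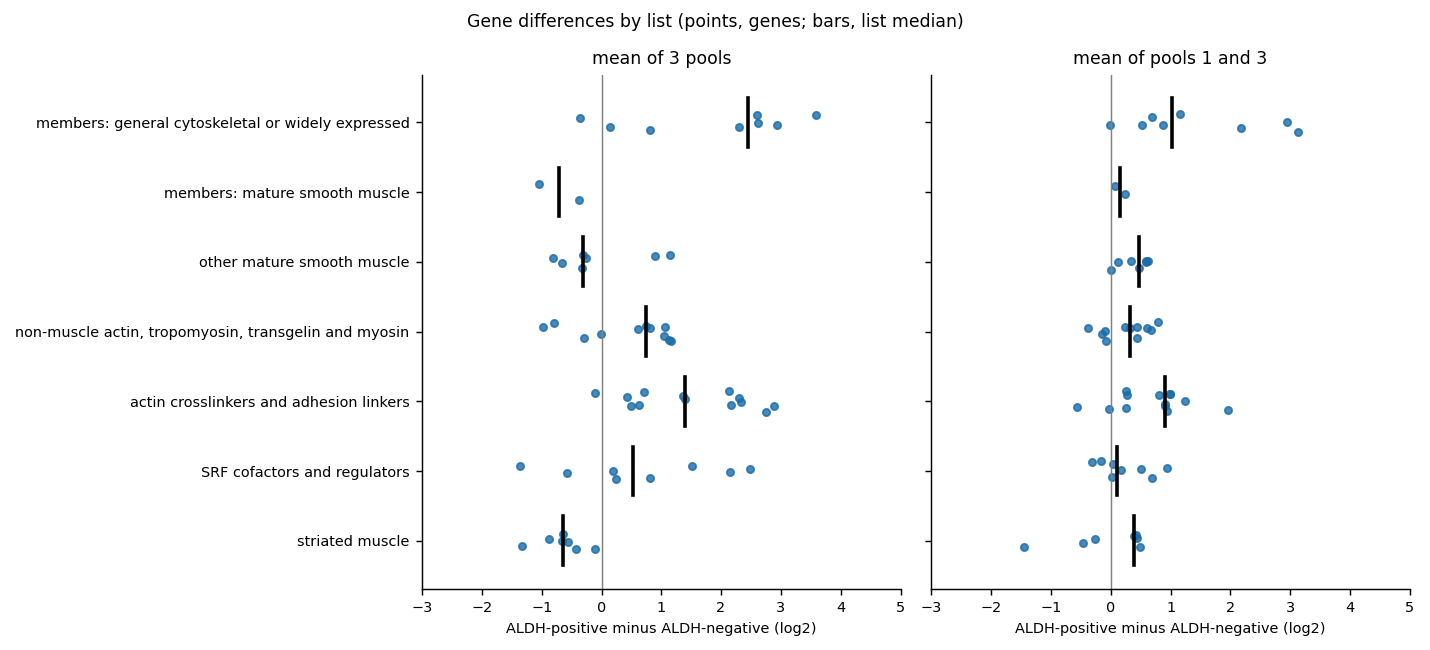
Log2 difference of ALDH-positive minus ALDH-negative cells for each tested gene of the member groups and of 5 related lists, as the mean of 3 pools (left) and of pools 1 and 3 (right), with black bars at the list medians. The general members and the actin crosslinkers lie furthest right on both sides, at medians of 2.44 and 1.40 on the left and of 1.02 and 0.91 on the right.

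In a list of SRF, its cofactors and related genes, 8 genes were tested, with 6 higher and 2 lower in ALDH-positive cells. The median was 0.53, or 0.10 without pool 2. Ccn2, Ankrd1 and Ccn1 had the largest differences of the list, at 2.48, 2.14 and 1.51. Its count and median are therefore not those of SRF and its cofactors alone. Srf itself read 7.00, 7.02 and 7.51 in ALDH-positive cells and 6.54, 4.92 and 7.64 in ALDH-negative cells, a difference of 0.81 (SE 0.72) and of 0.16 without pool 2. Its cofactors Mrtfa and Mrtfb differed by 0.24 (SE 0.64) and -0.57 (SE 0.70), and both by 0.03 without pool 2. Srf, Mrtfa and Mrtfb were named after their values were seen. Myocd, the cofactor of SRF in heart and smooth muscle, was lower in every pool, by -0.42, -3.44 and -0.22, and stood at -0.32 without pool 2. It was dim, at 3.03, 3.95 and 3.61 in ALDH-positive cells, against 3.44, 7.39 and 3.83 in ALDH-negative cells. The reading of 7.39 is from the deviating array, where most dim probe sets read higher. Ccn2, a matricellular protein, was higher in every pool, at 1.04, 5.53 and 0.85, and the related Ccn1 likewise, at 0.34, 3.53 and 0.66. Ankrd1, a nuclear and sarcomeric protein, differed by 2.14 (SE 1.35) from pool 2 alone, with -0.32 and -0.01 in pools 1 and 3. All 7 tested genes of striated muscle were lower in the mean (median -0.64), and their median without pool 2 was 0.39. Among these, the troponin genes Tnnc1 and Tnni3 stood at -1.33 (SE 0.78; -0.46 without pool 2) and -0.88 (SE 0.71; -1.45 without pool 2). The other 2 named by the same rule, the giant protein gene Ttn and the troponin gene Tnni2, stood at -0.66 (SE 0.84) and -0.64 (SE 0.85), and above 0 without pool 2.

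Over the 6 arrays, the genes whose profile correlated most with that of Acta2 were Cdh11, a cadherin of mesenchymal cells (Pearson r = 0.995), Lratd2 (0.994), the kinase gene Stk26 (0.993), the collagen gene Col3a1 (0.992) and Frmd4a (0.991). Their differences were 4.23, 2.75, 4.89, 3.90 and 0.91. Among the members, Tpm2 had a correlation of 0.868 with Acta2, Tpm1 of 0.791, Tagln of 0.696 and Myl9 of 0.486, while Myh11 and Lmod1 had -0.470 and -0.581. These values describe 6 arrays that include both fractions and the deviating array.

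Markers of the cell types the preparation could hold were read beside these genes. In bulk samples fewer cells of a type and less RNA in each cell cannot be told apart. All 12 tested markers of surface epithelium and mesothelium were higher in ALDH-positive cells in every pool. Their summed signal, as log2, was 11.26 to 11.63 in ALDH-positive cells, against 8.12 to 9.02 in ALDH-negative cells, so that markers of the labelled cell type were brighter in the ALDH-positive fraction. The 6 tested of 8 fibroblast and stroma markers were all higher in the mean, 3 of them in every pool. Their summed signal was 9.88 to 10.17 in ALDH-positive cells, against 6.82 to 8.63 in ALDH-negative cells. In ALDH-positive cells Col1a1 and Col3a1 were the brightest of them, with means of 8.54 and 8.88. Lum and Postn were too dim to be tested, with differences of 0.15 and -0.10. The epithelial markers were higher in every pool, as Acta2, Tagln and Myl9 were. Of the stroma markers, Col1a1, Col3a1 and Thy1 were likewise higher in every pool, at 1.78, 2.35 and 2.35 in pool 3. Col1a2, Dcn and Pdgfra were higher in pools 1 and 2 and lower in pool 3, at -1.17, -0.67 and -0.36. The part of these 2 lists in the differences of Acta2, Tagln and Myl9 was not tested. Of 8 mature smooth muscle markers 6 were tested, with Actg2 and Cnn1 too dim. Their summed signal was 6.15 to 6.38 in ALDH-positive cells, and 5.68, 8.66 and 6.43 in ALDH-negative cells of pools 1, 2 and 3. Of 8 pericyte markers 5 were tested, at 5.95 to 6.27 in ALDH-positive cells, against 5.85 to 8.28 in ALDH-negative cells. Rgs5, Abcc9 and Kcnj8 were too dim to be tested, and no more than 2.83 in ALDH-positive cells, against 2.86 in ALDH-negative cells. Of the steroidogenic markers 3 of 4 were tested, and all 3 were higher in the mean (median 0.71) but lower in pools 1 and 3 (median -0.94 without pool 2). Their summed signal was 11.51, 11.55 and 10.45 in ALDH-positive cells of pools 1, 2 and 3, against 12.14, 7.56 and 11.16 in ALDH-negative cells. The 5 granulosa markers tested, 3 higher and 2 lower, summed to 9.32 to 9.91 in ALDH-positive cells, against 7.49 to 10.37 in ALDH-negative cells. Of 6 endothelial markers 2 were tested, 1 higher and 1 lower, and of 6 leukocyte markers 4, with 1 higher and 3 lower. The endothelial sum was 4.45 to 6.44 in ALDH-positive cells, against 4.30 to 4.75 in ALDH-negative cells. Of its 2 genes Kdr differed by 1.44 and Pecam1 by -0.01. Cdh5, Tek, Emcn and Tie1 were too dim to be tested, and all were lower in the mean, by -0.68, -0.33, -1.25 and -0.76. The leukocyte sum was 4.77 to 8.19 in ALDH-positive cells, against 5.58 to 8.28 in ALDH-negative cells. It was highest in pool 3 in both fractions, where Csf1r alone read 8.06 (ALDH-positive) and 8.18 (ALDH-negative). The other tested genes of this list, Ptprc, Cd68 and Cd14, read 2.27 to 3.41 in that pool. The part of these lists in the differences of the members was not tested.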

How the data were processed

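The deposited series table gives 1 value per probe set and array, for 45101 probe sets. As deposited, the values lie between 0.035 and 13.06 and were taken for log2 signal, since no header states the scale. What the authors did for background, summarisation and normalization is not given in the sources used here, beyond GeneSifter and a paired analysis in the series design. Per the labels' protocols, cDNA was amplified before hybridization. Array medians differed by 0.46, above a limit of 0.2, so quantile normalization was applied to all but 64 control probe sets. The lower 40% by mean (level 2.73) were dropped, which left 27022 probe sets for limma 3.58.1 (R 4.3.3), with fraction and pool as terms. Benjamini-Hochberg adjustment covered all of these. Each p-value rests on variation among 3 pools, with the spread of each probe set drawn towards one shared by all (prior degrees of freedom 5.42). The number of arrays limits precision. The fit was tested on simulated data with independent noise, which held no pool effect and no deviating array.

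Pools are the replicate numbers of the titles. Within pools, deviations from the group means had correlations of 0.34, -0.19 and 0.31, so the pairing rests on the paired design of the series. Gene names come from GEO's annotation of the platform, updated by Entrez identifier with the RefSeq table of GRCm38.p6 (34945 probe sets with 1 symbol, 932 with several, 9160 with none; 34741 matched). The brightest tested probe set stood for a gene (12814 genes). Named were all members, up to 4 genes of smallest unadjusted p in each related list, and the 5 genes most correlated with Acta2. The results of 1 further list are not reported here. Members and lists were chosen with earlier results of these data known. Alternatives covered normalization, filter, block, array weights, prior trend, the choice of probe set and leaving out each pool.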

Additional observations from a re-analysis of the deposited data

How the results depend on the processing

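As reported, 0 probe sets passed the threshold in limma (661 at an unadjusted p under 0.05). The count stayed at 0 with the values as deposited, median-centred arrays, other filters, no replicate block and a trended prior, was 0 to 7 when a pool or the ALDH-negative array of pool 2 was left out (7 without pool 1), and was 2953 with array weights. Those weights were 1.30, 0.16 and 4.87 for both arrays of pools 1, 2 and 3, so that fit leans on pool 3. With it Acta2 (3.01, limma adjusted p = 1.86e-04), Tagln (2.51) and Myl9 (1.77) passed. These were 3 of the 24 tested probe sets of the members, against 2953 of all 27022, a similar share. No paired call depended on the block: without it the count was 0 and the differences were the same.

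The median of the general members was 2.44, and 0.91 with array weights. It ran from 1.02 to 3.13 in the fits that left out arrays, with the lowest value without pool 2 and 1.05 without the ALDH-negative array of that pool alone. The median of the mature members, -0.72, ran from -1.59 to 0.15, and was 0.12 without that array. The median over all probe sets tested was -0.04, 0.06 as deposited and 0.22 after median centring, so part of any higher value there is this shift. Acta2 ran from 2.94 to 3.95, Tagln from 2.53 to 3.32 and Myl9 from 2.18 to 3.23 over the fits that left out arrays, all above 0.

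Signs turned for probe sets with small or pool-dependent differences. In Cnn3, 1436836_x_at gave 0.15 as deposited and 0.32 median-centred, and 1456380_x_at gave 0.36, 0.53 and, with array weights, 0.064, with -0.39 to 0.17 over left-out arrays. The range of Cnn3 1426724_at was -0.058 to 3.59, with the lowest without pool 2, and this probe set in place of the brightest, an alternative chosen after seeing the data that drops sets ending in _x_at or _s_at, gave 2.33 for the gene. Tpm2 1419739_at ran from -0.74 to 1.04 (0.76 without pool 2) and Cald1 1424769_s_at from -0.39 to 0.51. Cald1 1433147_at was -0.19 with array weights. Myh11 ran from -2.32 to 0.073 with 1418122_at and from -2.17 to 0.31 with 1448962_at, the highest without pool 2, and was 0.063 and 0.28 without the ALDH-negative array of pool 2 alone. Lmod1 ran from -0.86 to 0.24 and was 0.0073 with array weights. Removing the lower 60% left Myh11 1448962_at and Lmod1 untested, while Myh11 1418122_at was still tested. Causes were not tested.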
